A study of Mus musculus with 19 samples.

Results

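The genes of the phagocyte NADPH oxidase and of the oxidative burst were followed in blood leukocytes of DBA/2 and B6 mice after administration of CAWS, a water-soluble mannoprotein and beta-glucan fraction of *Candida albicans* that causes vasculitis. They are Cybb, Cyba, Ncf1, Ncf4, Rac2, Sod2 and Nos2, chosen by name as all non-control probes that the array files assign to these genes. They make 7 of the 27745 gene names and 10 of the 41174 probes on the array. Of the 7 genes, 6 gave a signal above background and could be tested, with 9 probes, and Nos2 could not.

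Phagocytes kill ingested microbes with the oxidative burst, in which the NADPH oxidase passes electrons from NADPH to oxygen and makes superoxide. The catalytic gp91phox (Cybb) and its partner p22phox (Cyba) sit in the membrane as flavocytochrome b558, and p47phox (Ncf1) and p40phox (Ncf4) join them from the cytosol, together with the GTPase Rac2, when the cell is stimulated. Superoxide is turned into hydrogen peroxide by superoxide dismutases, of which Sod2 is the mitochondrial one, and Nos2 is the inducible nitric oxide synthase of activated macrophages. Neutrophils and monocytes carry most of the oxidase of the blood.

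RNA of leukocytes from the whole blood of male DBA/2 and B6 mice was collected at 5 time points, namely right after CAWS (0 w) and then at 2 w, at 4 w, at 8 w and finally at 9 w, and labelled RNA was hybridized to 1-color arrays. There were 18 samples in 10 groups on 19 arrays, with 2 samples in all groups but B6 2 w and B6 9 w, which had 1 each, and B6 0 w replicate 2 was hybridized to 2 arrays that were averaged. Both strains received CAWS in all groups, so that 0 w, taken right after the last of the daily intraperitoneal injections, was not an untreated state, and later DBA/2 mice were those that had survived. The sources used here give an age range for the mice but no age for each group. Per the methods, the RNA on each array came from an individual mouse.

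By one measure of spread the replicates of a group were close to 2 arrays of the same RNA in both strains. By another measure they were close in B6 groups and not in DBA/2 groups. Over the 11536 probes that every array detected, the robust SD of the log2 difference was 0.138 between the 2 arrays of B6 0 w replicate 2 and 0.131 to 0.193 between replicates 1 and 2 of a group. The plain SD of these differences, which outlying probes raise, was 0.238 for the same RNA, 0.221 to 0.263 in B6 groups and 0.316 to 0.412 in DBA/2 groups. The p-values measure the spread between these samples, of which a part may be technical. In B6 groups this spread was about that of the same RNA on 2 arrays. How much of the spread between mice it holds is not known. All replicate 1 arrays were scanned on one day and all replicate 2 arrays on another. Hepatocyte genes were high in 2 groups of leukocyte samples: the summed signal of 9 such genes was 16960 to 17420 in B6 0 w and 8920 to 9388 in B6 8 w, against 347 to 913 in the other groups. Every comparison of B6 with its 0 w rests on such samples and cannot be made without them, whereas DBA/2 against B6 at 4 w uses none of them. The DBA/2 arrays of 0 w to 8 w were on slides that held no B6 array. In direct comparisons of the strains, at 4 w too, strain and slide can therefore not be told apart.

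Signals are given as scaled signals, which are processed intensities brought to the same 75th percentile on each array. They compare samples for 1 probe and not different probes. Each gene was described by its brighter probe, called the main probe, and tests were made with limma over all 22939 probes detected in at least 2 samples, with a Benjamini-Hochberg adjusted p under 0.05 as the threshold for a call.

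Cybb encodes the catalytic subunit. Its main probe (mm8 chrX:8594147-8594206) gave scaled signals of 253 and 263.5 in DBA/2 0 w, 190 and 182 at 2 w, 364.5 and 343 at 4 w, 500.5 and 481 at 8 w and 398 and 374 at 9 w. In B6 mice it gave 236 and 228 at 0 w, 278 at 2 w, 186 and 185 at 4 w, 354 and 335 at 8 w and 362 at 9 w. The highest group was DBA/2 8 w, the lowest groups were DBA/2 2 w and B6 4 w, whose ranges overlapped, and the 4 DBA/2 samples of 4 w and 8 w all lay above both of DBA/2 0 w. In B6 mice, both samples of 4 w lay below both of 0 w and both of 8 w above them.

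Cyba encodes the partner subunit that stabilizes gp91phox. Its probe (mm8 chr8:125313083-125313351) gave scaled signals of 217 and 214 in DBA/2 0 w, 261 and 247 at 2 w, 350.1 and 312 at 4 w, 427 and 382 at 8 w and 352.5 and 382 at 9 w. B6 signals were 407 and 410.2 at 0 w, 307 at 2 w, 349.9 and 362 at 4 w, 528 and 567 at 8 w and 495 at 9 w. DBA/2 0 w was the lowest of the 10 groups and B6 8 w the highest. Unlike Cybb, Cyba was lower in DBA/2 than in B6 mice at 0 w (log2 difference -0.92, 1.90-fold, SE 0.091, limma adjusted p = 5.83e-05).

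The genes of the cytosolic part were also highest at 8 w within DBA/2 mice. The Ncf1 main probe (mm8 chr5:134505486-134505545) gave 121 and 117 in DBA/2 0 w, 109 and 87.7 at 2 w, 148 and 138 at 4 w, 203 and 176 at 8 w and 90.3 and 87.9 at 9 w, and in B6 mice 89.3 and 85.0 at 0 w, 104 at 2 w, 73.1 and 77.0 at 4 w, 148 and 143 at 8 w and 113 at 9 w. Both 8 w groups had the highest group means, with DBA/2 8 w apart from B6 8 w, and at 9 w DBA/2 mice were back below their own 0 w. For Ncf4, whose product binds phosphoinositides at the phagosome (probe at mm8 chr15:78089728-78089787), DBA/2 samples gave 1278 and 1300.0 at 0 w, 1446 and 1394 at 2 w, 1946 and 1824 at 4 w, 2578 and 2552 at 8 w and 1796 and 1472 at 9 w. B6 samples gave 1527 and 1541 for Ncf4 at 0 w, 1996 at 2 w, 1328 and 1415 at 4 w, 1718 and 1891 at 8 w and 1722 at 9 w. DBA/2 0 w was thus the lowest group for Ncf4 and DBA/2 8 w the highest, apart from all others.

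Rac2, the GTPase of the oxidase in blood cells, is described next. Its main probe (mm8 chr15:78388277-78388336) gave 2071 and 2035 in DBA/2 0 w, 1955 and 1874 at 2 w, 2481 and 2426 at 4 w, 2516 and 2476 at 8 w and 1693 and 1676 at 9 w. The B6 signals of Rac2 were 1901 and 1918 at 0 w, 1984 at 2 w, 1451 and 1536 at 4 w, 2253 and 2360.0 at 8 w and 1854 at 9 w. DBA/2 8 w and 4 w overlapped at the top, and B6 4 w was the lowest group.

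Sod2 went another way. Its probe (mm8 chr17:12858140-12858199) gave 2156 and 1988 in DBA/2 0 w, 3487 and 3578 at 2 w, 2147 and 2136 at 4 w, 2976 and 3007 at 8 w and 3622 and 3290.0 at 9 w. In B6 mice Sod2 gave 4413 and 4476 at 0 w, 5590.0 at 2 w, 5308 and 5216 at 4 w, 2604 and 2596 at 8 w and 3605 at 9 w. B6 0 w, 2 w and 4 w were the 3 highest groups, DBA/2 0 w and 4 w overlapped at the bottom, and the strains came near each other only at 8 w and 9 w. The summed signal of 6 erythroid genes had a like order, 2244000 to 2685000 in B6 0 w, 2 w and 4 w, 1115000 to 1151000 in B6 8 w and 1289000 to 1357000 in DBA/2 0 w and 4 w. Of these 6 genes, 1 was saturated on all arrays and 2 on at least 1 array, and the part of erythroid RNA in the Sod2 signal was not tested.

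**Figure D1:**
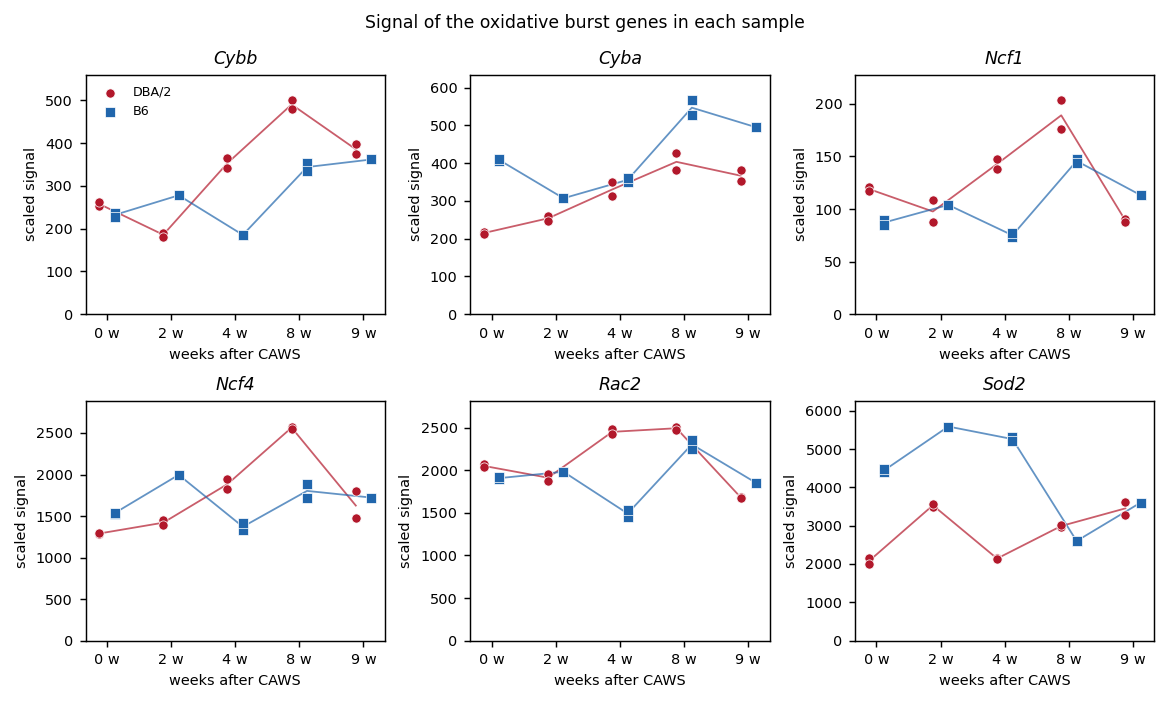
Scaled signal of the main probe (y axis, linear, from 0) of 6 genes in each of the 18 samples, by week after CAWS (x axis), with DBA/2 mice as red circles, B6 mice as blue squares and lines through the group means (geometric). Cybb, Ncf4 and Ncf1 peak in DBA/2 mice at 8 w, and Sod2 is far higher in B6 than in DBA/2 mice at 0 w, 2 w and 4 w.

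None of the 19 arrays gave a Nos2 signal well above background. Its processed signal, the mean of 10 spots per array, was 1.96 to 6.90 with a median of 2.68, while the dimmest probes called well above background gave 7.82 to 28.2, depending on the array. No level and no fold can be given for Nos2 in either strain.

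In DBA/2 mice, the question was which genes had changed at 4 w and 8 w, taken as their mean, against 0 w. All 6 tested genes rose, where 22.9% of all tested probes were called in either direction (2248 rises and 2998 falls of 22936, or 466 and 120 with normexp background correction), and all 9 tested probes of these genes rose. Ncf4 rose by 0.77 on the log2 scale (1.71-fold, SE 0.087, limma adjusted p = 0.000231), Cyba by 0.76 (1.70-fold, SE 0.079, adjusted p = 0.000129), Cybb by 0.69 (1.61-fold, SE 0.065, adjusted p = 7.44e-05) and Ncf1 by 0.46 (1.38-fold, SE 0.097, adjusted p = 0.0076). Sod2 and Rac2 rose by 0.29 and 0.27 (1.22-fold and 1.21-fold, adjusted p = 0.0104 and 0.00938). The median change of the 6 genes was 0.58, beside -0.14 over all tested probes. In each of 5 oxidase genes 4 of 4 samples of 4 w and 8 w lay above both of 0 w, and for Sod2 it was 2 of 4, both of 8 w. How many of all tested probes separated in this way was not counted, so these counts only describe the samples. Within the first scan day alone, in which the DBA/2 arrays of 0 w to 8 w shared a slide, the differences ran from 0.23 for Sod2 to 0.84 for Cyba, and within the second, likewise on 1 slide, from 0.27 for Rac2 to 0.73 for Ncf4. The calls of Cybb, Cyba and Ncf4 held in all alternatives, while with normexp background correction Ncf1, Rac2 and Sod2 had differences of 0.34, 0.31 and 0.30 and adjusted p of 1.00, 0.612 and 0.596. Sod2 also lost its call with quantile normalization (0.21, adjusted p = 0.0864) and with DBA/2 mice alone (0.0517), and without the filter on dim probes Rac2 and Sod2 lost theirs (0.128 and 0.115). Without DBA/2 0 w replicate 2 the adjusted p of the same genes were 0.0629, 0.073 and 0.109, and without replicate 1 that of Rac2 was 0.0528.

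The promoters of Cybb, Cyba and Ncf1 are shown, since these genes of the same enzyme rose together in DBA/2 mice. RefSeq windows (build GRCm38.p6) were found for 4 of the 7 genes, the fourth being Sod2. Each of the 3 shown is the 250 bases before the start of a gene on the minus strand of the genome, written 5′ to 3′ along the gene, and capitals mark matches to the letters searched. The lines stand for Cybb at chrX:9469325-9469574, Cyba at chr8:122432941-122433190 and Ncf1 at chr5:134229626-134229875.
Cybb: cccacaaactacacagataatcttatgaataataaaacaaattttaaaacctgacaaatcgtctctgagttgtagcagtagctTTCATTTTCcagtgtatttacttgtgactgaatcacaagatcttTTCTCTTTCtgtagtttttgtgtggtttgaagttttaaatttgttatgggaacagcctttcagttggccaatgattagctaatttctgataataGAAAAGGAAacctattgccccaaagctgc
Cyba: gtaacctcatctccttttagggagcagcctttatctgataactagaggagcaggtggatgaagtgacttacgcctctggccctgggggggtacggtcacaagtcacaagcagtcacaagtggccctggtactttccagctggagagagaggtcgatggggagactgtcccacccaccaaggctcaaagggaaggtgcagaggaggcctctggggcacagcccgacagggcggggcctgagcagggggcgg
Ncf1: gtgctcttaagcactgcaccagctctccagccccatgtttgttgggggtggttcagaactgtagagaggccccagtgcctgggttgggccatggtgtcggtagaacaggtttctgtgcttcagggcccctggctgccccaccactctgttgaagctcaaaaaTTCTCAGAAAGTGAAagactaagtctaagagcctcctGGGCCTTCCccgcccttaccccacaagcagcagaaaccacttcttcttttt

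The letters searched on both strands were GAGGAAG for the core of the site of PU.1 (a myeloid transcription factor), TTCNNNGAA (a gamma interferon activated site, GAS), GAAANNGAA (like an interferon-stimulated response element) and GGGNNTTNC (like a kB site). Of the 32851 windows in the table, 10.6%, 7.02%, 7.13% and 13.0% held them in this order. Cybb held 3 matches, all of the GAAANNGAA type, starting at -167, -123 and -29 from the transcription start. Ncf1 held a GAS match at -88 to -80 that overlapped a GAAANNGAA match at -82 to -74, and a kB-like match at -51 to -43. Cyba held no match, with a GC content of 60.0% against 34.0% for Cybb and 54.4% for Ncf1. Sod2 held 1 GAS match at -185 to -177. A match is a likeness of letters and was not tested as a site.

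By single week, the rise in DBA/2 mice was not steady. At 2 w, 15.7% of probes were called and only 2 of the 6 genes, Cybb, which fell by 0.47 on the log2 scale (SE 0.075, adjusted p = 0.00307), and Sod2, which rose by 0.77 (1.71-fold, SE 0.075, adjusted p = 0.000267). The dim second probe of Cybb did not show that fall, with 0.08 (95% interval -0.49 to 0.66), and neither call held with normexp correction (adjusted p = 0.326 and 0.0853). At 4 w, with 14.8% of probes called, 4 genes rose, Cyba by 0.62, Ncf4 by 0.55, Cybb by 0.45 and Rac2 by 0.26 (adjusted p = 0.00199, 0.0062, 0.00353 and 0.0327), while Ncf1 and Sod2 differed by 0.26 and 0.05 without a call. The second probes of Cybb and Rac2 gave 0.69 and 0.31 at 4 w without a call (limma adjusted p = 0.111 and 0.0522). With normexp correction none of the 6 passed at 4 w (adjusted p from 0.0997 for Cyba), the sizes of the 4 staying at 0.26 to 0.57. Over all probes, normexp left 127 rises and 20 falls at 2 w and 262 and 33 at 4 w.

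At 8 w all 6 genes rose, with 24.0% of all probes called. Ncf4 rose by 0.99, Cybb by 0.93, Cyba by 0.91, Ncf1 by 0.67, Sod2 by 0.53 and Rac2 by 0.28 (adjusted p from 2.59e-05 for Cybb to 0.0143 for Rac2). Against a median of -0.18 over all probes at 8 w, the median of the 6 genes was 0.79. Normexp correction left the calls of Cybb, Cyba and Ncf4 and ended those of Ncf1, Rac2 and Sod2 (0.52, 0.35 and 0.53, adjusted p = 0.666, 0.603 and 0.168).

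At 9 w the main probes of the subunits parted. Of the 6 genes, 4 rose and 2 fell by their main probes, where 27.7% of all probes were called. Cyba, Sod2 and Cybb rose by 0.77, 0.74 and 0.58 (adjusted p = 0.000292, 0.000123 and 0.000473) and Ncf4 by 0.33 (adjusted p = 0.0349), whereas Ncf1 fell by 0.42 (adjusted p = 0.0211) and Rac2 by 0.29 (adjusted p = 0.0123). The second probe of Rac2 gave -0.20 without a call (95% interval -0.40 to 0.007). Ncf4 lost its call on leaving out any of 7 samples, its value moving to 0.19 without DBA/2 9 w replicate 1 (adjusted p = 0.168), and with quantile normalization (0.16, adjusted p = 0.199). The fall of Ncf1 was not seen with its second probe, at -0.06 (95% interval -0.46 to 0.34, with 1 of the 2 samples left at 9 w since a spot was marked as an outlier), and turned to 0.21 with normexp correction (adjusted p = 0.489). Under normexp only Cybb and Cyba passed at 9 w, and without DBA/2 0 w replicate 1 the number called was 3.

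**Figure D2:**
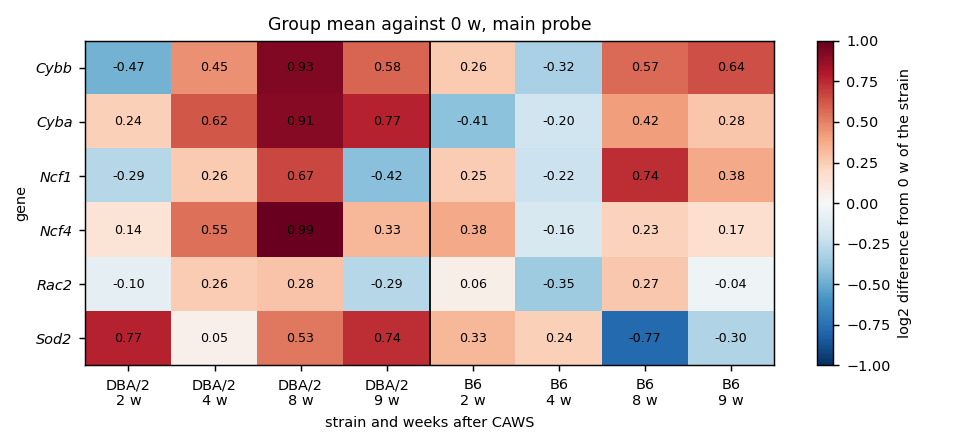
Difference of each group mean from 0 w of the same strain on the log2 scale (color and number) for the main probes of 6 genes (rows) at each later week (columns), with DBA/2 mice at the left and B6 mice at the right. DBA/2 8 w holds the highest value of Ncf4 (0.99), while B6 4 w is below 0 for all genes but Sod2. B6 2 w and 9 w are 1 sample each and were not tested against 0 w.

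B6 mice gave no such common rise. For the averaged change from 0 w to 4 w and 8 w, 1 of the 6 genes was called, Sod2, which fell by 0.26 (1.20-fold, SE 0.065, adjusted p = 0.0229), beside 15.0% of all probes, and no oxidase gene was. Their differences were 0.26 for Ncf1 (95% interval 0.04 to 0.48), 0.12 for Cybb (-0.02 to 0.27), 0.11 for Cyba (-0.07 to 0.29), 0.04 for Ncf4 (-0.16 to 0.23) and -0.04 for Rac2 (-0.17 to 0.09). The sign of the Rac2 value turned with normexp correction and with scaling over all probes. The call of Sod2 was lost under 6 of the planned processing alternatives, with adjusted p of 0.0794 to 0.575, and on leaving out any of 5 single B6 samples, namely either sample of 0 w, either of 8 w or replicate 2 of 4 w (0.0544 to 0.134).

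This mean held opposite movements. At 4 w, where 15.7% of probes were called, Rac2 and Cybb fell by 0.36 and 0.32 in B6 mice (adjusted p = 0.00775 and 0.0182), and at 8 w, with 21.2% called, Ncf1, Cybb, Cyba and Rac2 rose by 0.74, 0.57, 0.42 and 0.27 (adjusted p = 0.00136, 0.000616, 0.00965 and 0.0193) while Sod2 fell by 0.77 (1.71-fold, adjusted p = 9.53e-05). Ncf4 differed by 0.23 at 8 w and Sod2 by 0.24 at 4 w without a call, that of Sod2 passing with the replicate number, which here is the scan day, as a block (adjusted p = 0.0315). With normexp correction no gene was called in B6 mice at either week, at 8 w with adjusted p from 0.0834. Over all probes, normexp left 29 rises and 56 falls at 4 w and 390 and 388 at 8 w. With slide as a block, 1 gene was called at each of the weeks, Rac2 at 4 w and Sod2 at 8 w. At 4 w the fall of Cybb lost its call on leaving out any of the 4 B6 samples of 0 w and 4 w (adjusted p = 0.0644 to 0.110), and that of Rac2 without B6 4 w replicate 1 (0.0566). At 8 w, 3 genes were called without B6 0 w replicate 1 or without B6 8 w replicate 2. The 1 sample of 9 w differed from 0 w by 0.64 for Cybb and -0.30 for Sod2, and that of 2 w by 0.38 for Ncf4 and -0.41 for Cyba, with no test.

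Whether the change differed between the strains was tested directly, as the DBA/2 change minus the B6 change. Of the 6 genes, 5 had a more positive change in DBA/2 mice, beside 13.2% of all probes called in either direction. For Sod2 this was a rise in DBA/2 mice against a fall in B6 mice. The difference was 0.73 for Ncf4 (1.66-fold, SE 0.12, adjusted p = 0.00447), 0.65 for Cyba (1.57-fold, SE 0.11, adjusted p = 0.00493), 0.57 for Cybb (1.48-fold, SE 0.092, adjusted p = 0.0036), 0.55 for Sod2 (1.47-fold, SE 0.091, adjusted p = 0.004) and 0.31 for Rac2 (1.24-fold, SE 0.083, adjusted p = 0.0377). For Ncf1 it was 0.20 (95% interval -0.11 to 0.51, adjusted p = 0.422). These calls were sensitive to the processing: none of the 6 genes passed with normexp correction (adjusted p from 0.264 for Ncf4), and only Ncf4 without the filter on dim probes, while Rac2 lost its call on leaving out any of 13 of the samples, with adjusted p of 0.0541 to 0.121. These were the 8 DBA/2 samples of 0 w, 2 w, 4 w and 8 w, both B6 samples of 0 w and of 8 w, and B6 4 w replicate 1.

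The comparison was also made without the B6 samples that held hepatocyte RNA, as 4 w against 2 w in each strain, an alternative chosen after seeing the data. The DBA/2 change exceeded the B6 change by 1.51 for Cybb, 1.02 for Ncf1, 0.95 for Ncf4 and 0.77 for Rac2. The value of Cybb includes its fall at DBA/2 2 w, which its second probe did not show. For Cyba the difference was 0.17, and for Sod2 it was reversed, at -0.63. B6 2 w is 1 sample, so only the sizes are given. The summed signal of its platelet genes was 43690, against 94640 to 161600 in the other groups.

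**Figure D3:**
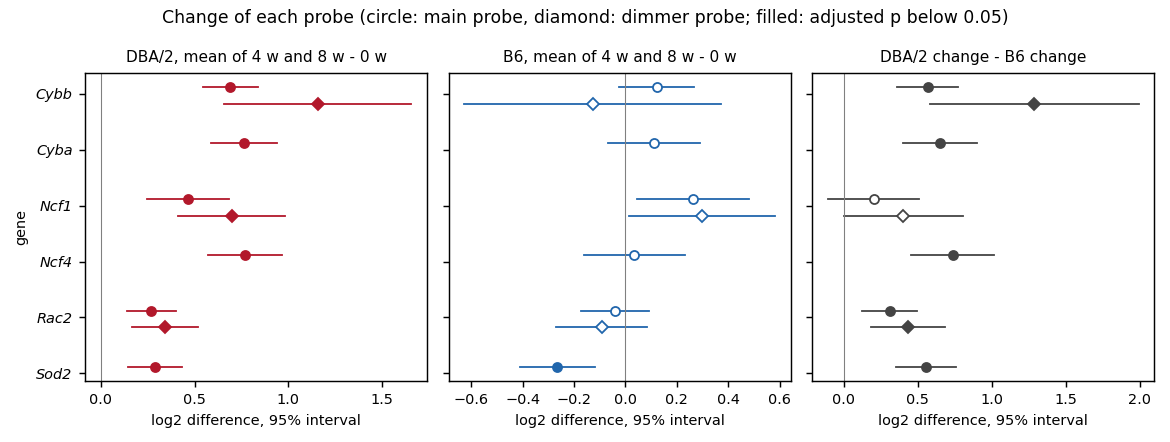
Log2 difference with its 95% interval (x axis) for the 9 tested probes of 6 genes (y axis), main probes as circles and second probes as diamonds, filled where called: the averaged later weeks (4 w, 8 w) minus 0 w for each strain, and the difference between these changes. The DBA/2 values of the main probes are all above 0, from 0.27 for Rac2 to 0.77 for Ncf4, and in B6 mice 4 of their 6 intervals include 0.

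The strains were also compared directly at each week. At 0 w, with 32.7% of all probes called, Cyba was lower in DBA/2 mice as given with its signals, Sod2 was lower (log2 difference -1.10, 2.15-fold, SE 0.075, adjusted p = 5.21e-06) and Ncf1 was higher by 0.45 (SE 0.11, adjusted p = 0.0125). The second probe of Ncf1 gave 0.03 at 0 w (95% interval -0.30 to 0.36), and the main probe gave 0.04 with normexp correction (adjusted p = 0.915). B6 0 w held the highest hepatocyte signal of all groups, whose part in these differences was not tested.

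At 4 w, where neither strain had that signal, 4 genes were higher in DBA/2 mice and 1 was lower, beside 32.1% of all probes. Cybb was higher by 0.93 (1.91-fold, SE 0.075, adjusted p = 1.35e-05), Ncf1 by 0.93 (1.90-fold, SE 0.11, adjusted p = 0.00019), Rac2 by 0.72 (1.64-fold, SE 0.068, adjusted p = 3.87e-05) and Ncf4 by 0.46 (1.37-fold, SE 0.10, adjusted p = 0.0068). Sod2 was lower (log2 difference -1.30, 2.46-fold, SE 0.075, adjusted p = 1.55e-06), and Cyba differed by -0.11 (95% interval -0.31 to 0.10). The second probe of Cybb was not well above background on either B6 4 w array, and only 1 of the 2 DBA/2 4 w arrays measured it above background, so that no fold is given for it. All 5 calls held on leaving out any 1 sample, and with normexp correction that of Ncf1 was lost (0.31, adjusted p = 0.380).

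At 8 w the strains were nearer. Cybb, Ncf4 and Ncf1 were higher in DBA/2 mice by 0.51, 0.51 and 0.38 (adjusted p = 0.000865, 0.0048 and 0.0354) and Cyba was lower (log2 difference -0.44, adjusted p = 0.00628), beside 25.4% of all probes. The second probes of Cybb and Ncf1 gave 0.63 and 0.36 without a call (limma adjusted p = 0.106 and 0.111). Without DBA/2 8 w replicate 1 the value of the Ncf1 main probe was 0.27. Hepatocyte signal was 8920 to 9388 in B6 8 w and 347 to 674 in DBA/2 8 w, and its part in these differences was not tested. Rac2 and Sod2 differed by 0.11 and 0.20 without a call, that of Sod2 passing with the scan day as a block (adjusted p = 0.0487). None of the 6 genes passed with normexp correction (adjusted p from 0.0861 for Cybb), and 2 passed without B6 8 w replicate 2.

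Other parts of the oxidase and its activation were taken from a list of 10 genes, all tested. Against 0 w, the averaged later weeks of DBA/2 mice had 5 of them up and 2 down. Prkcd, a kinase that phosphorylates p47phox, rose by 0.60 (adjusted p = 0.0035) and Vav1, an exchange factor for Rac, by 0.47 (adjusted p = 0.0114), while Hvcn1, the proton channel that balances charge during the burst, fell by 0.43 (adjusted p = 0.0102). In B6 mice 4 rose and none fell. The change differed between the strains for 3 of the 10, larger in DBA/2 mice for Prkcd (0.79) and BC017643 (0.41) and smaller for Rac1 (-0.37). Of 7 other Nox enzymes and partners on the array, 3 were tested and none was called for this averaged change. By single week in DBA/2 mice, Duox2 fell by 0.93 at 4 w (adjusted p = 0.0337) and Noxo1 fell by 1.06 at 9 w (adjusted p = 0.0469), both named after their values were seen.

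Among 19 tested genes that handle superoxide and peroxide, 7 rose and 2 fell in DBA/2 mice, and 7 rose and 2 fell in B6 mice. Hmox1, which breaks down heme, rose by 1.63 (SE 0.083, adjusted p = 1.24e-06) in DBA/2 mice, the peroxidase gene Prdx5 by 1.54 (2.91-fold, adjusted p = 3.26e-07) and the thioredoxin gene Txn1 by 1.18 (2.27-fold, adjusted p = 1.83e-06). The changes of these 3 were larger in DBA/2 than in B6 mice by 1.34, 1.06 and 0.70, and that of the glutathione reductase gene Gsr was smaller (-0.85). Already at 0 w, 16 of the 19 genes were lower and 0 higher in DBA/2 than in B6 mice, beside 32.7% of all probes called. The B6 changes are measured from 0 w samples with high hepatocyte signal, and the part of that signal in these strain differences was not tested. At 4 w, 13 of the 19 were lower and 4 higher in DBA/2 than in B6 mice, where 32.1% of all probes were called in either direction, and Sod2 was lower too. Among the lower were Cat, the catalase gene (log2 difference -2.49, 5.63-fold), and Prdx2 (-1.94, 3.84-fold); Cat was picked out after its values were seen. All 6 erythroid markers were also lower in DBA/2 mice at 4 w, with a median of -1.46, and their part in this was not tested.

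In the nitric oxide and arginine list, 2 of 5 tested genes rose in DBA/2 mice, the arginase genes Arg1 by 2.06 (4.16-fold, SE 0.29, adjusted p = 0.00082) and Arg2 by 2.07 (4.19-fold, SE 0.16, adjusted p = 1.72e-05). The strain difference of Arg1 was 4.48 and that of Ass1 1.58, but liver also expresses both genes, and hepatocyte signal was high in B6 0 w and 8 w. At 4 w, Arg1 was higher in DBA/2 than in B6 mice by 1.90 (adjusted p = 0.00194). Of 3 granule peroxidase genes 2 were tested, and Mpo, the neutrophil one, named after its values were seen, was called in DBA/2 mice only at 8 w, at 1.15 (2.21-fold, adjusted p = 0.0129).

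Markers of the cells that carry the oxidase moved as well. In bulk RNA fewer cells of a type and less RNA per cell cannot be told apart. All 10 tested neutrophil markers rose at 4 w and 8 w in both strains, with medians of 2.15 in DBA/2 and 2.18 in B6 mice. Their summed signal went from 40050 to 40460 in DBA/2 0 w up to 264400 to 294400 at 8 w, and from 21500 to 21590 in B6 0 w through 52700 to 56410 at 4 w up to 161500 to 162300 at 8 w. In B6 mice at 4 w, neutrophil signal was thus above 0 w while Cybb and Rac2 were below it.

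Of 8 monocyte markers, 6 rose in DBA/2 mice (median 1.60), while in B6 mice 2 rose and 2 fell (median -0.13), and for 6 the change differed between the strains. Their summed signal was 1289 to 1315 in DBA/2 0 w, 1719 to 1757 at 2 w, 3234 to 3373 at 4 w, 4977 to 5113 at 8 w and 2887 to 3062 at 9 w. The B6 sums were 2231 to 2316 at 0 w, 1537 to 1628 at 4 w and 3267 to 3271 at 8 w. They were below 0 w at 4 w and above it at 8 w, as for Cybb. In DBA/2 mice at 2 w the sum was above 0 w, while the main probe of Cybb was below it. The single markers were split there, with 2 of 8 up, 2 down and a median of 0.04. Of 8 markers of splenic or tissue macrophages, 5 rose in DBA/2 mice, and in B6 mice 1 rose and 5 fell. Their B6 median was -2.31 at 4 w and -0.45 at 8 w. Hepatocyte signal was high in B6 0 w and 8 w, and its part in these B6 changes was not tested. The part of these cell types in the signals of the oxidase genes was not tested.

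**Figure D4:**
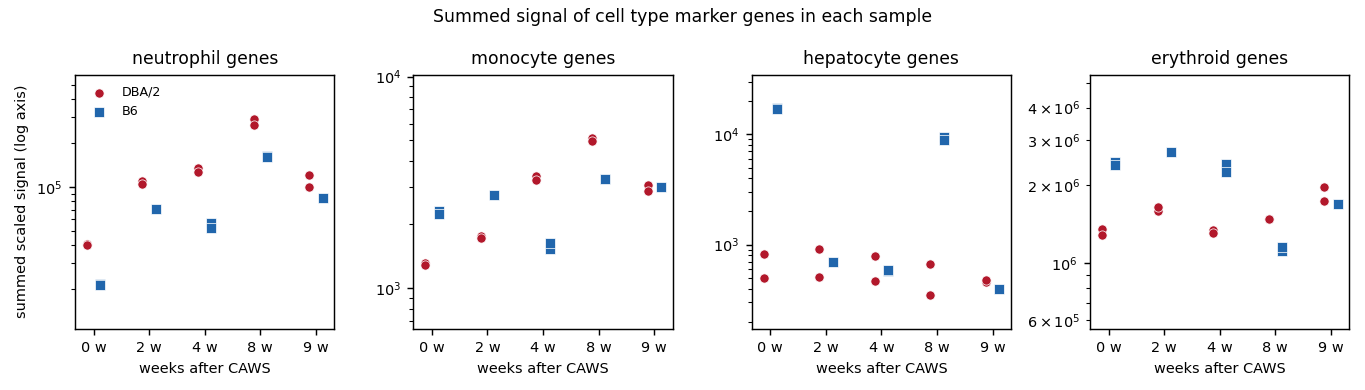
Summed scaled signal (y axis, log scale) of neutrophil, monocyte, hepatocyte and erythroid marker genes in each of the 18 samples, by week after CAWS (x axis), with DBA/2 mice as red circles and B6 mice as blue squares. Neutrophil sums peak at 8 w in both strains, monocyte sums peak at 8 w in DBA/2 mice, and hepatocyte sums stand out in B6 0 w and 8 w.

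Over the 18 samples, which share strains and weeks, the signals of Ncf1 and Rac2 were most alike among the 6 genes (Pearson r = 0.926), followed by Cybb and Ncf4 (0.796), while Sod2 ran against Rac2 (-0.688). The genes whose pattern was most like each were Emp3 for Cybb (r = 0.959), Prdx5 for Cyba (0.960), Dscr3 for Ncf1 (0.945) and Rac2 (0.933), Chmp2a for Ncf4 (0.948) and Glo1 for Sod2 (0.991). These are descriptions of shared pattern over these samples.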

How the data were processed

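Blood leukocyte RNA of 18 samples was measured on 19 1-color Agilent mouse arrays. The deposited files hold processed signal intensities, background-subtracted by Agilent Feature Extraction 9.5.3.1 per the file headers, and not normalized between arrays by the authors. Groups and replicate numbers came from the sample labels. Control spots and outlier spots were left out, spots of a probe were averaged, and log2 intensities had the 75th percentile of the same array subtracted, computed from the 11536 probes that every array detected. The 2 arrays of B6 0 w replicate 2 were averaged. The 22939 of 41174 probes detected (well above background) by 2 or more of the 18 samples were fitted over the 10 groups with limma 3.58.1 in R 4.3.3 (lmFit and eBayes, 8 residual degrees of freedom), and 12 comparisons were each adjusted by Benjamini-Hochberg with a threshold of 0.05. A gene was described by its brighter probe. Outside the 7 genes, the rule named at most the 3 largest rises and 3 largest falls of each pathway list among the called (DBA/2 change, strain difference), and the genes with the highest Pearson r to each member. The members and lists were chosen with earlier results of these data known. Alternatives were normexp background correction with an offset of 50, quantile normalization, scaling over all probes, other filters, the deposited value table, a replicate block, slide as a block, each strain alone, other handling of probes and spots, and leaving out each sample in turn. The model was tested on simulated data. The number of arrays limits the precision. Replicate numbers were checked as pairs: deviations of same-numbered samples correlated at -0.0251 to 0.829 (median 0.177), over 0.1 in 23 of 28 pairs of groups, where pairing required it in all. The numbers were therefore not used in the reported model, but they coincide with the scan day, and the blocked value is given where it changes a call. Versions of pandas (2.3.3) and matplotlib (3.10.9) are given for the tables and figures. The values of 1 gene of the oxidase list are not reported here.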

Additional observations from a re-analysis of the deposited data

Results flagged for a closer look

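The change from 0 w to the mean of 4 w and 8 w differed between the strains, by a test of the difference itself in limma, for 5 genes. Of all tested probes, 13.2% were called in either direction. The DBA/2 change minus the B6 change was 0.73 for Ncf4 (0.7348), 0.65 for Cyba (0.6521), 0.57 for Cybb (0.5678), 0.55 for Sod2 (0.5548) and 0.31 for Rac2 (0.3111) on the log2 scale. The same differences had the same direction within each of the 2 scan days. None of the 5 was called with normexp correction, and only Ncf4 without the filter on dim probes. Over the tested probes, normexp left 76 rises and 14 falls, and dropping the filter 661 and 579, where 1486 and 1543 were reported. Rac2 also lost its call with quantile normalization. In the comparison of 4 w against 2 w, the difference of Sod2 was reversed. Hepatocyte signal in B6 0 w and 8 w moves with this comparison, and its part was not tested.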

How the results depend on the processing

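Counts are of the 6 tested genes. With normexp correction, 3 were called for the DBA/2 mean, 0 for the B6 mean, 0 for the strain difference, 0 for DBA/2 2 w, 0 for DBA/2 4 w, 3 for DBA/2 8 w, 2 for DBA/2 9 w, 0 for B6 4 w, 0 for B6 8 w and 0 for DBA/2 against B6 at 8 w. Over all probes, normexp left 127 rises and 20 falls at DBA/2 2 w (1813 and 1793 as reported). At DBA/2 4 w it left 262 and 33, at 8 w 470 and 148, and at 9 w 2412 and 399. In B6 mice it left 29 and 56 at 4 w and 390 and 388 at 8 w. Between strains at 8 w it left 429 and 501. Without the filter on dim probes the counts were 4 for the DBA/2 mean, 0 for the B6 mean, 1 for the strain difference, 1 at DBA/2 2 w, 1 at 4 w, 3 at 9 w, 0 at B6 4 w, 3 at B6 8 w and 2 between strains at 8 w. Of the tested probes, 1450 rises and 1514 falls were then called for the DBA/2 mean, where 2248 and 2998 were reported. For the B6 mean the calls were 910 and 699, and for the strain difference 661 and 579. At DBA/2 2 w they were 835 and 353, at 4 w 943 and 521 and at 9 w 1995 and 1674. In B6 mice they were 479 and 806 at 4 w and 1478 and 1212 at 8 w, and between strains at 8 w 1489 and 2291. With slide as a block the counts of the 6 genes were 0 for the B6 mean, 3 for the strain difference, 1 at B6 4 w and 1 at B6 8 w. Over all probes this block left 677 rises and 610 falls for the B6 mean and 921 and 851 for the strain difference. It left 923 and 1595 at B6 4 w and 1055 and 1048 at B6 8 w. This block could not be fitted for DBA/2 9 w and for the strains at 0 w, 4 w and 8 w. Slide as a random block, added after seeing the data, gave 4 at DBA/2 2 w, and the mean of a gene's probes gave 1 there. The B6 mean also went to 0 with quantile normalization, with scaling over all probes and with each strain alone, and B6 4 w to 1 with quantile normalization and 0 with its strain alone. Normexp moved the median of all probes from -0.04 to -0.63 at B6 8 w and from -0.03 to 0.78 at DBA/2 9 w, and left 135 rises and 44 falls over all probes for the B6 mean (1671 and 1774 as reported) and 76 and 14 for the strain difference (1486 and 1543). The cause of these changes was not tested.

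Leaving out each sample in turn gave 3 to 6 genes for the DBA/2 mean (3 without DBA/2 0 w replicate 2), 0 to 1 for the B6 mean, 4 to 5 for the strain difference, 2 to 3 for DBA/2 2 w, 3 to 4 for DBA/2 4 w, 5 to 6 for DBA/2 8 w, 3 to 6 for DBA/2 9 w, 0 to 3 at B6 4 w, 3 to 5 at B6 8 w, and 2 to 4, 5 to 5 and 2 to 4 between strains at 0 w, 4 w and 8 w. The number of all probes called also moved with the sample left out. With the replicate block the counts were 3 at B6 4 w and 5 between strains at 8 w and otherwise as reported (6 for the DBA/2 mean). Over all probes the replicate block left 1923 rises and 3045 falls at B6 4 w (1382 and 2217 as reported). Between strains at 8 w it left 2992 and 4024 (2384 and 3451 as reported).

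Signs turned, for the B6 mean, in Rac2 with normexp (0.0833) and with scaling over all probes (0.0364), in Ncf4 with slide as a block (-0.0630) and in Cybb with the mean of its probes (-0.0022). They also turned in Ncf4 at DBA/2 2 w (-0.0514) and Sod2 at DBA/2 4 w (-0.0196) with quantile normalization, Sod2 at 4 w without DBA/2 0 w replicate 2 (-0.0098, in a range up to 0.107 over the samples left out), Ncf1 at DBA/2 9 w with normexp (0.21), Cybb between strains at 0 w with the mean of its probes (-0.13), and Sod2 in the strain difference of 4 w against 2 w (-0.63).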
